A study of Homo sapiens with 4 samples.

Results

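Serpins and other inhibitors of proteases were examined in OCI-AML3, an established human cell line from acute myeloid leukaemia. The genes were SERPINB1, SERPINB6, SERPINB8, SERPINB9, SERPINB10, SERPINI1, SERPINA1, PI3, SLPI and CSTB. They were chosen by name with their values in the same contrast already known, so the differences below describe them, carry no test and support nothing. All 10 were found among the 41084 Ensembl identifiers, with 1 identifier per symbol. RNA selected for poly(A) tails was sequenced in 4 libraries. The genotype label was Plex CEBPB for 2 of them, the CEBPB libraries, and Plex Control for the other 2, the Control libraries. The word Plex is common to both labels and is not explained in the sources used here, and neither the way CEBPB was altered nor the source of the replicates is given. All p-values below therefore measure the spread between libraries, which may be technical.

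Serpins are suicide inhibitors. The protease cleaves an exposed loop of the serpin and is trapped as a covalent, inactive complex. Clade B serpins stay mostly inside the cell, where in myeloid cells they face proteases that leak from granules and lysosomes, while SERPINA1 and SERPINI1 are secreted. PI3 and SLPI are small secreted proteins built on a whey acidic protein domain, and CSTB is a cystatin that blocks cysteine cathepsins by filling their active site cleft. C/EBPβ, the product of CEBPB, is a DNA-binding regulator known from macrophages and acute phase responses.

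The deposited counts summed to between 18151225 and 21950575 per library. CEBPB itself read 536 and 339 TPM in the CEBPB libraries, against 4.72 and 4.47 TPM in the Control libraries. TPM is transcript abundance per length, scaled to the same total in each library. All 8 myeloid and leukocyte markers were detected, although MPO, a granule enzyme, was at 1.79 TPM or less and ITGAM at 5.23 TPM or less. Their summed level was 8260 and 8601 TPM in the CEBPB libraries and 2288 and 2194 TPM in the Control libraries. Most of that was LYZ, lysozyme, with 7686 and 7921 TPM in the CEBPB libraries, against 1413 and 1308 TPM in the Control libraries. The transcription factor gene SPI1 (103 and 120.2 TPM in the CEBPB libraries, 218 and 223 TPM in the Control libraries), CD68 and CSF3R were lower in both CEBPB libraries than in either Control library. Of the 4 hepatocyte, 4 epithelial and 4 erythroid or megakaryocyte markers, none reached 1 TPM in any library. Of 6 lymphocyte markers NKG7 alone did so, at no more than 24.3 TPM, and of 4 fibroblast or endothelial markers PECAM1 and COL1A1 did, PECAM1 with up to 86.6 TPM. In bulk RNA, more RNA per cell and more cells that express a gene cannot be told apart.

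PI3, SERPINI1, SERPINB9 and SLPI were far higher in the CEBPB libraries, SERPINB1 was 1.9-fold higher, and SERPINA1 was lower. SERPINB6 and CSTB were close to level, and SERPINB8 stood at 0.759 of its Control level in the fit and at 0.859 in TPM. SERPINB10 was near 0 in every library. Together the 10 genes held 1212 and 991 TPM in the CEBPB libraries, against 446 and 442 TPM in the Control libraries. Of the 9 with enough counts to enter the fit, 5 were among the genes called higher and 2 among those called lower (edgeR quasi-likelihood test, Benjamini-Hochberg adjusted p under 0.05 over all genes). The same fit called 48.5% of 13698 identifiers, 23.7% higher and 24.7% lower. Those were 3251 higher and 3390 lower, against 4424 higher and 2360 lower with library totals as the only scaling. In TPM, 9 of the 10 did not overlap between the groups, and nor did 77.4% of all tested identifiers. The median log2 fold change of the 9 was 0.93, also with PI3 at its lower bound, and that of all tested identifiers was 0.00092. Nothing is read from these counts, since the contrast served to choose the genes.

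**Figure D1:**
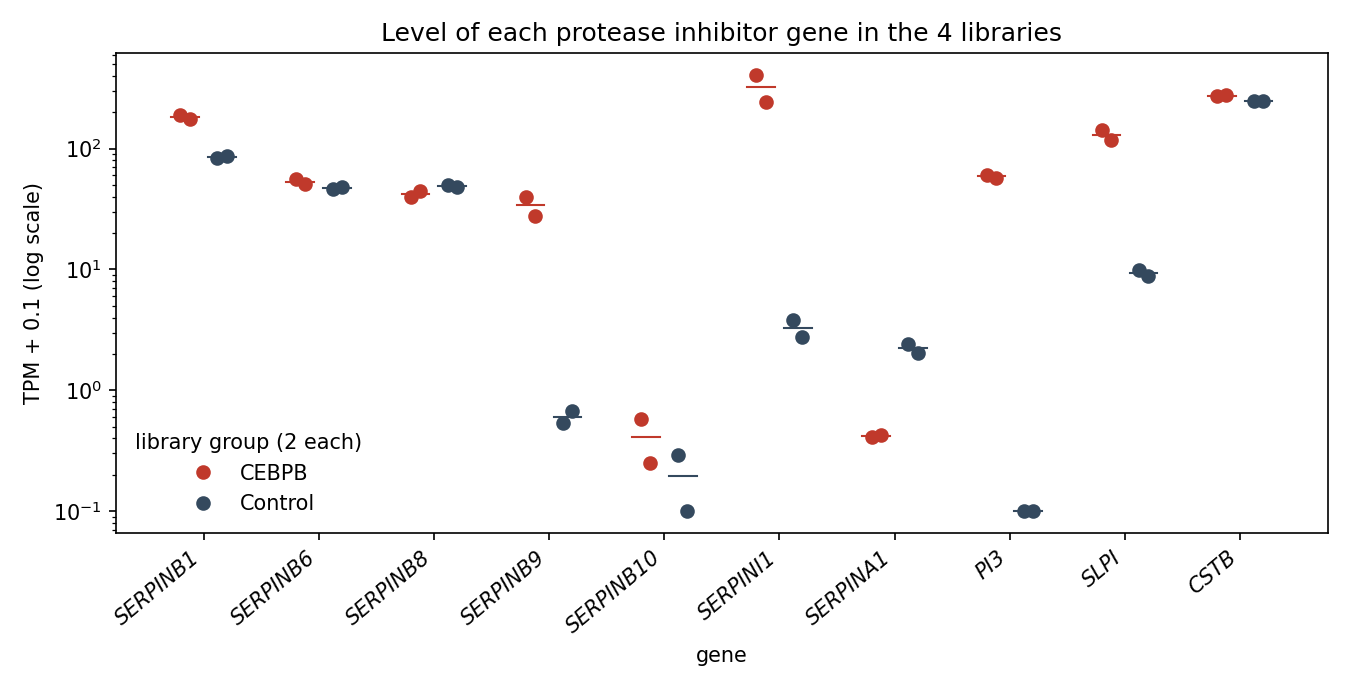
TPM plus 0.1, on a log axis, of each of the 10 inhibitor genes in the 2 CEBPB (red, left) and the 2 Control libraries (dark, right), with a line at each group's mean. PI3 is listed at 0 in both Control libraries and at 57.3 and 60.4 TPM in the CEBPB libraries, and SERPINB6, SERPINB8 and CSTB differ little between the groups.

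Among the 5 listed clade B serpins, SERPINB9 differed the most. SERPINB9 (ENSG00000170542.6; GENCODE v29 on GRCh38, chromosome 6, 2887266 to 2903280, minus strand) encodes the inhibitor of granzyme B that protects cells from their own or incoming cytotoxic granules. It read 39.8 and 27.7 TPM in the CEBPB libraries and 0.439 and 0.568 TPM in the Control libraries. The groups did not overlap, and CEBPB replicate 1 was the higher of its group. The log2 fold change was 5.86 (SE 0.26), or 58.2-fold. Read numbers, recovered as TPM times effective length, were 2744 and 1640.0 in the CEBPB libraries, against 31 and 43 in the Control libraries.

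SERPINB1 (ENSG00000021355.13; chromosome 6, 2832332 to 2842006, minus strand) encodes an inhibitor of neutrophil elastase, cathepsin G and proteinase 3. It read 191 and 176 TPM in the CEBPB libraries, against 84.2 and 86.4 TPM in the Control libraries. The groups were well apart, with a log2 fold change of 0.93 (SE 0.06), or 1.9-fold. In both groups it had the highest level of the 5 listed clade B serpins.

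SERPINB6 (ENSG00000124570.21; chromosome 6, 2948159 to 2972165, minus strand), which inhibits cathepsin G, read 55.8 and 50.9 TPM in the CEBPB libraries and 45.9 and 47.9 TPM in the Control libraries. Its TPM values did not overlap, yet its log2 fold change in the fit was 0.0065 (SE 0.07). The scaling by trimmed means used in the fit lowered the median log2 fold change of all tested identifiers by 0.18 relative to library totals, and with totals alone SERPINB6 stood at 0.19. SERPINB8 (ENSG00000166401.15; chromosome 18, 63969925 to 64019779, plus strand), an inhibitor of the proprotein convertase furin, read 39.4 and 44.2 TPM in the CEBPB libraries, against 49.6 and 47.7 TPM in the Control libraries. Both CEBPB libraries were below both Control libraries in TPM. The log2 fold change of SERPINB8 in the fit was -0.40 (SE 0.10), while with totals alone it was -0.22. In the fit without CEBPB replicate 1 it was -0.27 and without CEBPB replicate 2 it was -0.52.

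SERPINB10 (ENSG00000242550.7; chromosome 18, 63897174 to 63936111, plus strand) encodes bomapin, a nuclear serpin of blood-forming cells. It read 0.478 and 0.15 TPM in the CEBPB libraries, and 0.19 and 0 TPM in the Control libraries. The groups overlapped, and the recovered reads were 15.7 over both CEBPB libraries and 5 over both Control libraries. Its counts were too low for the fit. Of the distinct 31-base words of its GENCODE transcripts, 20.7% also occur in transcripts of other genes, 519 of them in its neighbour SERPINB2, and the gene bodies of the pair overlap on the same strand, so these few reads are uncertain.

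The secreted serpins differed in opposite directions. SERPINI1 (ENSG00000163536.13; chromosome 3, 167735243 to 167825568, plus strand) encodes neuroserpin, an inhibitor of tissue plasminogen activator best known from neurons. It read 409 and 242 TPM in the CEBPB libraries, against 3.70 and 2.66 TPM in the Control libraries. The log2 fold change was 6.49 (SE 0.32), or 90.1-fold. Its rank by level among all identifiers was 309 and 487 in the CEBPB libraries, against 10304 and 10871 in the Control libraries. None of its 31-base words occurs in transcripts of another gene.

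SERPINA1 (ENSG00000197249.14; chromosome 14, 94376747 to 94390693, minus strand) encodes α1-antitrypsin, the main inhibitor of neutrophil elastase in plasma, made by liver and also by monocytes. It read 0.311 and 0.33 TPM in the CEBPB libraries and 2.32 and 1.94 TPM in the Control libraries. The groups did not overlap, and the log2 fold change was -2.87 (SE 0.39). These levels rest on 9 and 6.76 recovered reads in the CEBPB libraries, against 62 and 60 in the Control libraries.

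Both small whey acidic protein inhibitors were higher in the CEBPB libraries. PI3 (ENSG00000124102.5; chromosome 20, 45174876 to 45176544, plus strand) encodes elafin, which inhibits neutrophil elastase and proteinase 3. It read 60.4 and 57.3 TPM in the CEBPB libraries, and it was listed at 0 in both Control libraries. In recovered reads these were 582 and 467 in the CEBPB libraries, against 0 and 0 in the Control libraries. Set against a floor of 3 reads over both Control libraries, and scaled by library totals, PI3 was at least 362-fold higher.

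SLPI (ENSG00000124107.5; chromosome 20, 45252239 to 45254564, minus strand) encodes an inhibitor of elastase and cathepsin G. It read 142 and 118 TPM in the CEBPB libraries, against 9.74 and 8.76 TPM in the Control libraries. The groups were far apart, with a log2 fold change of 3.63 (SE 0.11), or 12.4-fold. None of the 31-base words of PI3 or SLPI occurs in transcripts of another gene. The shared part was 9.62% for SERPINB8, 6.78% for SERPINB9, 6.14% for SERPINB1, 5.38% for SERPINB6, 3.17% for CSTB and 0.268% for SERPINA1.

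CSTB (ENSG00000160213.9; chromosome 21, 43772511 to 43776445, minus strand) encodes cystatin B, an inhibitor of cathepsins B, H and L. It read 274 and 276 TPM in the CEBPB libraries and 249.8 and 246 TPM in the Control libraries. The values did not overlap in TPM, while the log2 fold change of the fit was -0.03 (SE 0.06) and that with library totals alone was 0.15. CSTB was the most abundant of the 10 in the Control libraries and ranked between 417 and 462 among all identifiers in the 4 libraries.

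**Figure D2:**
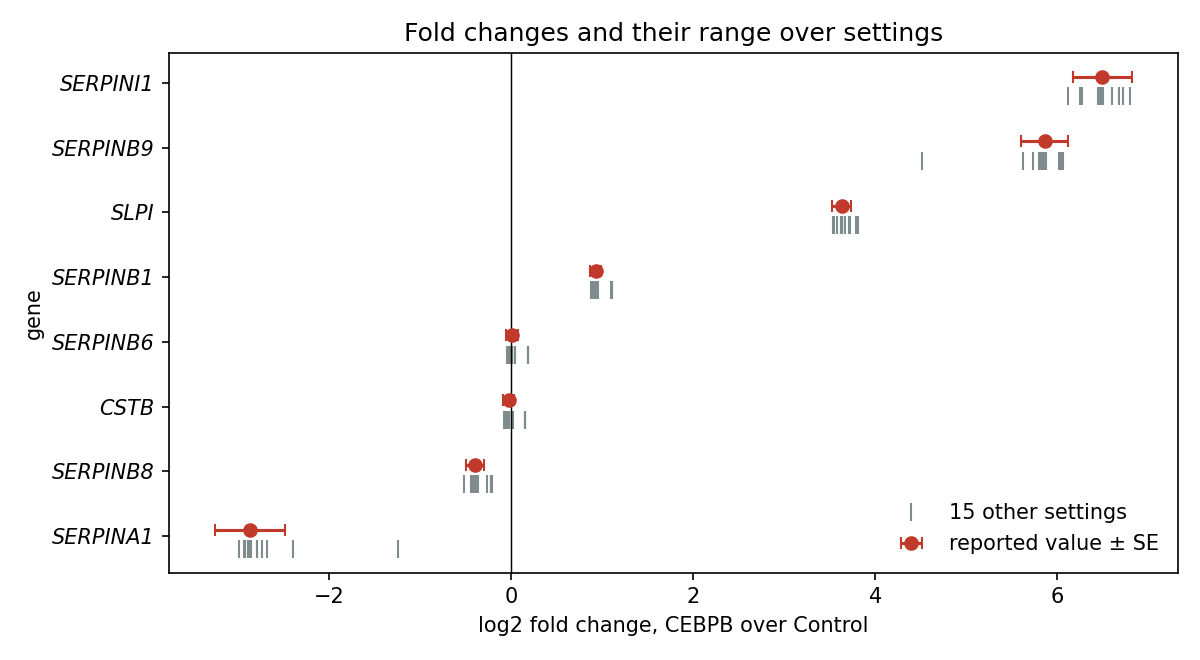
Log2 fold change, CEBPB over Control, of the 8 inhibitor genes with reads in both groups and enough counts for the fit (circles, with SE), and under 15 other settings (grey ticks). SERPINB6 and CSTB lie on both sides of 0, the other 6 genes on one side, and the ticks nearest 0 for SERPINB9 (4.51) and SERPINA1 (-1.24) are log2(TPM + 1).

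The order of the 10 levels differed between the groups. In the CEBPB libraries SERPINI1 (325 ± 118 TPM, SD, n = 2) and CSTB (275 ± 1.03) led and overlapped, followed by SERPINB1, SLPI, PI3 and SERPINB6 without overlap between neighbours. SERPINB8 and SERPINB9 overlapped below them, as did SERPINA1 and SERPINB10 at the bottom. In the Control libraries CSTB (248 ± 2.46) was followed by SERPINB1 (85.3 ± 1.53), then by SERPINB8 and SERPINB6, which overlapped. SLPI, SERPINI1, SERPINA1 and SERPINB9 came next without overlap, and SERPINB10 and PI3 overlapped at 0.

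The CEBPB libraries also differed from each other. CEBPB replicate 1 held 1.58 times the CEBPB level of replicate 2. Its level was 1.69 times that of replicate 2 for SERPINI1, 1.43 times for SERPINB9 and 1.2 times for SLPI, against 1.09 times for SERPINB1 and 1.05 times for PI3. For SERPINB6 it was 1.1 times, for CSTB 0.995, for SERPINA1 0.941 and for SERPINB8 0.892. SERPINB10 stood at 3.18 times, on few reads. With 2 libraries the part of the CEBPB level in this spread was not tested. Effective lengths, which depend on the transcripts used and on fragment sizes, ranged from 998 to 1082 bases for SERPINI1 and from 4113 to 4222 bases for SERPINB9 over the 4 libraries. For SERPINB8 they were 2564 and 2182 bases in the CEBPB libraries, against 2186 and 2319 bases in the Control libraries, and for SERPINA1 1774 and 1436 bases, against 1563 and 1683 bases. Neither gene's groups were apart in length.

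Several of the genes are neighbours, and genes of a locus differed unequally. SERPINB1, SERPINB9 and SERPINB6 follow each other on chromosome 6, all on the minus strand, with starts 61.3 kb and 130.2 kb from that of SERPINB1. The middle gene had the log2 fold change of 5.86, against 0.93 and 0.0065 at its sides. On chromosome 18, SERPINB10 and SERPINB8 lie beside SERPINB2, which read 295 and 241 TPM in the CEBPB libraries, against 0.0626 and 0.11 TPM in the Control libraries. On chromosome 20, PI3 and SLPI start 79.7 kb apart, and the SEMG1 and SEMG2 genes between them were at 0.605 TPM or less in each library.

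The nearest protein-coding gene on each side that does not overlap the listed gene was looked up after the values were seen. Of these, 7 outside the list had a start within 100 kb and were tested, and 4 rose and 2 fell (edgeR). SERPINB2 overlaps SERPINB10 and is not among them. Of all tested identifiers 48.5% were called, 23.7% higher and 24.7% lower, and nothing is read from the count of so few neighbours. PDCD10, which encodes an adaptor of the cerebral cavernous malformation complex, starts 304 bases from the GENCODE start of SERPINI1, on the opposite strand. It rose (257 and 242 TPM in the CEBPB libraries, 161 and 155 TPM in the Control libraries, log2 fold change 0.48, SE 0.06, adjusted p = 0.0022, edgeR). NQO2, a quinone reductase gene 15.8 kb from SERPINB6, rose by 2.18 on the log2 scale (SE 0.12, adjusted p = 0.00025, edgeR). WRNIP1 (0.51, adjusted p = 0.0068, edgeR) and HMSD (1.63, adjusted p = 0.024) rose too, and RRP1 (-0.59, adjusted p = 0.0023) and PDXK (-0.35, adjusted p = 0.026), which flank CSTB, fell. HMSD did not pass without CEBPB replicate 2 (adjusted p = 0.11), Control replicate 1 (0.1) or Control replicate 2 (0.064), all by edgeR. PDXK did not pass without the same 3 libraries (adjusted p = 0.065, 0.068 and 0.13, edgeR) and not with library totals (0.26). SEMG1 did not pass (-1.47, adjusted p = 0.08, edgeR). SERPINB8 shares 342 of its 31-base words with HMSD, so reads of the pair are not fully told apart.

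**Figure D3:**
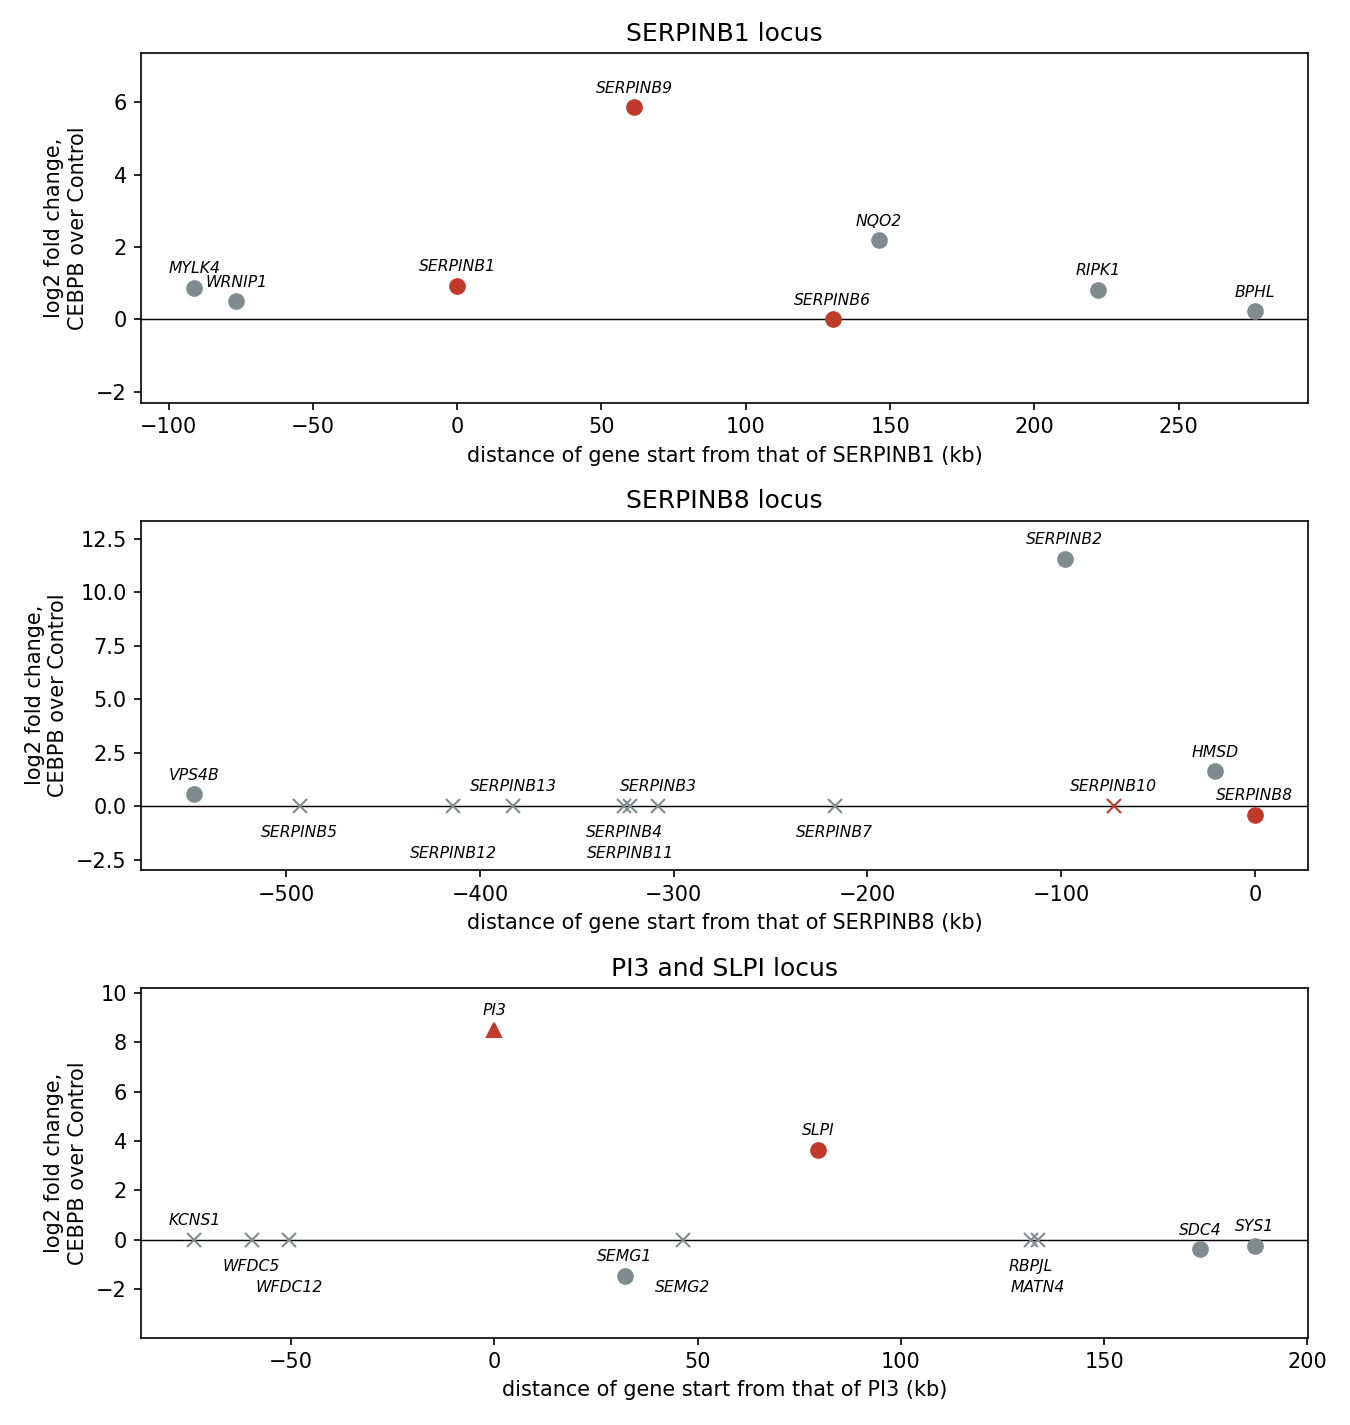
Log2 fold change, CEBPB over Control, of protein-coding genes against the distance of their start from that of SERPINB1, SERPINB8 or PI3, in kb. Listed inhibitors are red and other genes grey, and crosses at 0 mark genes with too few counts to test. The triangle of PI3 is a lower bound of 8.50 scaled by library totals, while the circles come from the fit. SYS1-DBNDD2 (2.54, SE 1.05), 188 kb from PI3, was tested but is not drawn. SERPINB9 at 5.86 lies between SERPINB1 at 0.93 and SERPINB6 at 0.0065.

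Promoters are shown because neighbouring serpins differed so unequally. RefSeq's table (GRCh38.p14) gave 10 windows for 6 of the 10 genes, each 300 bases long with 250 before the start. Each was searched on both strands for TTGCNNAA, a loose form of the C/EBP consensus, whose reverse complement is TTNNGCAA. It was found in 1 of the 10 windows, that of SERPINB8, and in 10.5% of all 35116 windows in the table. Some of the 10 are overlapping windows of SERPINB6, so they are not independent. PI3, SLPI, SERPINB10 and CSTB had no window and were not searched. The 4 windows below are written 5′ to 3′ on the gene's strand, with the motif in capitals.
SERPINI1, chr3:167735471-167735770, plus strand: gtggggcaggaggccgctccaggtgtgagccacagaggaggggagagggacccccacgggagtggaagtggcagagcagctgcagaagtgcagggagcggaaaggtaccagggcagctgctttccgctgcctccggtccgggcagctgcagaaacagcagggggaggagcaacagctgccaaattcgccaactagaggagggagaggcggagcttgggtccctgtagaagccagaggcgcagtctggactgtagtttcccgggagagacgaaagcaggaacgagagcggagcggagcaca
SERPINB9, chr6:2903260-2903559, minus strand: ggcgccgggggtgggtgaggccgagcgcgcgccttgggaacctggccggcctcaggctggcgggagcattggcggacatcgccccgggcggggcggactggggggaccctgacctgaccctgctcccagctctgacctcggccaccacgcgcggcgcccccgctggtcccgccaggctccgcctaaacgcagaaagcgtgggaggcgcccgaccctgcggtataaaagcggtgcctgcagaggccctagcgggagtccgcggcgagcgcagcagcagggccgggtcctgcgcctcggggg
SERPINB1, chr6:2841814-2842113, minus strand: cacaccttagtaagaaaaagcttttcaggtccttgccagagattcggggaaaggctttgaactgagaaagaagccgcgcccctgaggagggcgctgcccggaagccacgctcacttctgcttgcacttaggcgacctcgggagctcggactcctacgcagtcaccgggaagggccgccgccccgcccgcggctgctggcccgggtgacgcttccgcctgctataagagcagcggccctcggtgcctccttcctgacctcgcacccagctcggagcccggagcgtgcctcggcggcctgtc
SERPINB8, chr18:63969831-63970130, plus strand: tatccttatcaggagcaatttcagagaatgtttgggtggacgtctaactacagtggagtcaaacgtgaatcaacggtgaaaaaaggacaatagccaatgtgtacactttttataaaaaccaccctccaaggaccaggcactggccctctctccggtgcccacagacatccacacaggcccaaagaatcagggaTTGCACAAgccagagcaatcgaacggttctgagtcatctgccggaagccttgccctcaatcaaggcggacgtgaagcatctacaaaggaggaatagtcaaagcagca

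The match in SERPINB8 begins 57 bases before the start site. SERPINI1, SERPINB9 and SERPINB1, all higher in the CEBPB libraries, have no match in these windows, which says only that these letters are absent there. The windows of SERPINA1, which was lower, and of SERPINB6, close to level, are not shown and have no match either. The RefSeq window of SERPINI1 begins at base 167735471, inside the gene as GENCODE places it, from base 167735243. The stretch between the GENCODE starts of SERPINI1 and PDCD10 was therefore not searched in that window. The SERPINB9 window is 75.7% G or C with 35 CpG pairs, that of SERPINB1 65.7% with 27 and that of SERPINI1 64% with 14. The SERPINB8 window has 48.7% and 9 CpG pairs, against a median of 58.7% and 14 over all windows.

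Other serpins were mostly silent, and 3 of those measured rose. This list and the later ones were chosen with earlier results of these data known, so their counts and p-values describe them and support nothing. Of 28 further serpin genes, 21 had too few counts to test and 11 of these were listed at 0 throughout. Of the 7 tested, 3 rose and 1 fell (edgeR), with a median log2 fold change of 1.14, against 0.00092 over all tested identifiers, of which 23.7% were called higher and 24.7% lower. SERPINB2, the urokinase inhibitor PAI-2, rose by 11.56 on the log2 scale (SE 0.21, adjusted p = 2.2e-05, edgeR). That size rests on 4.6 recovered reads over both Control libraries, against 12673 over both CEBPB libraries.

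SERPINE2, a thrombin and urokinase inhibitor, rose to 92.3 and 56.1 TPM in the CEBPB libraries, against 2.55 and 1.15 TPM in the Control libraries (5.15, SE 0.37, adjusted p = 0.00046, edgeR). SERPINH1, a collagen chaperone that inhibits no protease, rose by 1.61 (SE 0.08, adjusted p = 2e-04, edgeR). AGT, the serpin precursor of angiotensin, fell (-0.70, adjusted p = 0.0092, edgeR), and without Control replicate 1 it stood at -0.65 and missed the threshold (adjusted p = 0.052, edgeR).

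Of 38 listed cystatins and other inhibitors 15 were tested, of which 4 rose and 5 fell (edgeR), with a median log2 fold change of -0.18. These counts are near the 23.7% higher and 24.7% lower of all tested identifiers. CSTA, the intracellular relative of CSTB, rose to 629 and 609 TPM in the CEBPB libraries, against 178 and 183 TPM in the Control libraries (1.60, SE 0.06, adjusted p = 0.00012, edgeR). CST3, the secreted cystatin C, fell to 61.8 and 60.2 TPM, against 119 and 110.1 TPM in the Control libraries (-1.09, SE 0.07, adjusted p = 0.00039, edgeR).

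The metalloproteinase inhibitor TIMP1 (0.86), the calpain inhibitor CAST (0.57) and the broad plasma inhibitor A2M (2.52) rose (adjusted p = 0.001, 0.0015 and 0.0021, edgeR). PEBP1, which binds RAF kinase (-0.70), RECK, a membrane regulator of metalloproteinases (-0.84), SPINK2 (-2.81) and SPINT1, an inhibitor of the growth factor activator HGFAC (-0.57), fell (adjusted p = 0.00097, 0.0074, 0.0042 and 0.028, edgeR). SPINK2 rests on 1 and 2 recovered reads in the CEBPB libraries, against 7 and 13 in the Control libraries. It did not pass without Control replicate 2 (-2.62) and had no value in the fits of recovered reads. SPINT1 did not pass without CEBPB replicate 1 (-0.42), Control replicate 1 (-0.58) or Control replicate 2 (-0.56). Nor did it pass with library totals (adjusted p = 0.075, edgeR) or DESeq2 (adjusted p = 0.1). With limma it missed the threshold on log2(TPM + 1) (adjusted p = 0.071) and log2(TPM + 0.1) (adjusted p = 0.068). CST7, an inhibitor of cathepsin C, stood at 0.639 TPM or less and did not pass (-0.66, adjusted p = 0.54, edgeR).

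The listed serine proteases include targets of SERPINB1, SERPINB6, SERPINA1, PI3 and SLPI, and most of those measured fell. Of 16 listed genes 6 were tested, of which 5 fell and none rose (edgeR), with a median log2 fold change of -1.19. Of all tested identifiers 24.7% were called lower. Nothing is read from this count, since the list was chosen with earlier results of these data known. ELANE, neutrophil elastase, fell to 7.56 and 7.73 TPM in the CEBPB libraries, against 17.7 and 14.1 TPM in the Control libraries (-1.24, SE 0.15, adjusted p = 0.0022, edgeR). CTSG, cathepsin G, fell to 16.6 and 20.6 TPM, against 37.1 and 35.6 TPM in the Control libraries (-1.15, SE 0.14, adjusted p = 0.0021, edgeR). The inactive homologue AZU1 (-2.35), the granule protease PRSS57 (-1.44) and the membrane-anchored PRSS21 (-0.76) fell as well (adjusted p = 0.00089, 0.00088 and 0.0017, edgeR).

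PRTN3, proteinase 3, read 17.3 and 16.6 TPM in the CEBPB libraries, against 17.9 and 32.9 TPM in the Control libraries. It did not pass (-0.77, adjusted p = 0.073, edgeR), but it was called by DESeq2 (adjusted p = 0.021), from recovered reads (0.03, and 0.041 with a length offset), under a replicate block (0.036) and, at -1.14, in the absence of Control replicate 1 (0.0022). Without Control replicate 2 it stood at -0.26 (adjusted p = 0.18, edgeR). GZMB, the target of SERPINB9, was listed at 0 in all 4 libraries.

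Of 18 listed cathepsins, legumain and inflammatory caspases 15 were tested, of which 5 rose and 3 fell (edgeR), with a median log2 fold change of 0.09. These counts too are near the 23.7% and 24.7% of all tested identifiers. Of the targets of CSTB, CTSB rose to 142 and 140.0 TPM in the CEBPB libraries, against 90.8 and 88.7 TPM in the Control libraries (0.47, SE 0.06, adjusted p = 0.0029, edgeR). CTSH (-0.84, adjusted p = 0.0011, edgeR), CTSL (-0.62, adjusted p = 0.0016) and the antigen-processing CTSS (-0.55, adjusted p = 0.002) fell.

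CASP1, which matures IL-1β, and CASP4, a sensor of cytosolic lipopolysaccharide, rose by 1.21 and 1.04 on the log2 scale (adjusted p = 0.00027 and 0.00041, edgeR). CTSK (2.11, adjusted p = 0.0072, edgeR) rose too, with 0.695 TPM or less in the Control libraries, and did not pass without CEBPB replicate 1 (adjusted p = 0.053). CTSD (0.26, adjusted p = 0.036, edgeR) did not pass when any 1 of the 4 libraries was left out (0.19 to 0.33). Nor did it pass with a replicate block (adjusted p = 0.05037, edgeR) or from recovered reads with a length offset (adjusted p = 0.057, edgeR). CTSC, which activates granule serine proteases, did not pass (0.21, adjusted p = 0.1, edgeR), but it was called under library totals (0.4, adjusted p = 0.03), on log2(TPM + 1) with limma (adjusted p = 0.025), from recovered reads (adjusted p = 0.027) and in the absence of CEBPB replicate 2 (adjusted p = 0.017).

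**Figure D4:**
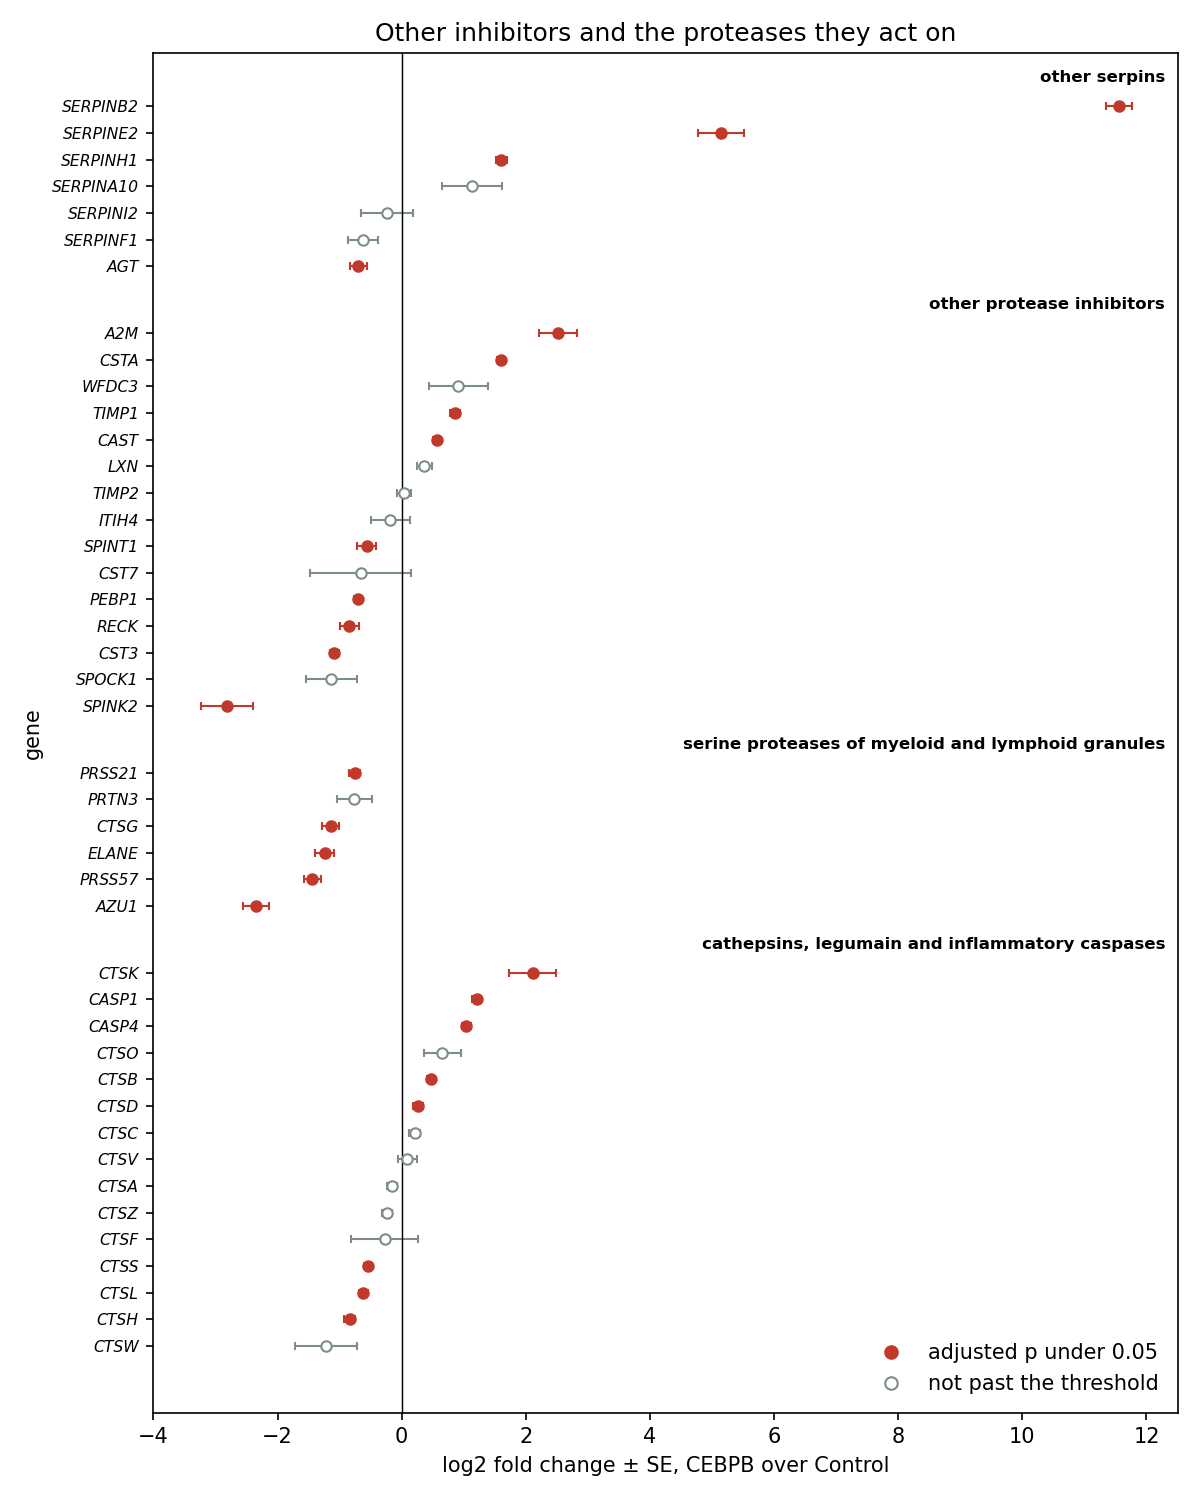
Log2 fold change with SE, CEBPB over Control, of each tested gene in 4 lists of other inhibitors and proteases. Filled red points passed an adjusted p of 0.05 (edgeR). Those in the serine protease list, which includes the membrane-anchored PRSS21, all lie below 0. SERPINB2 at 11.56 and SERPINE2 at 5.15 lie farthest to the right.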

How the data were processed

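RNA of 4 OCI-AML3 libraries was compared, 2 CEBPB and 2 Control. Trimmomatic 0.39 and kallisto 0.46.2 are listed, per the submitters' processing notes, along with GRCh38; the annotation release is not given in the sources used here. The deposited values are TPM, expected counts and effective lengths. Each deposited count equals the TPM times 1 constant per library, so it carries no transcript length. Multiplying TPM by effective length and fitting the product to each library's total gave back read numbers, called recovered reads.

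Expected counts deposited by the authors were rounded, filtered with filterByExpr (13698 identifiers left), and scaled by trimmed means, whose factors ran from 0.938 to 1.09. The test was the quasi-likelihood F test of edgeR 4.0.16 (R 4.3.3) with group as its term and an adjusted p under 0.05. The fit was also run on simulated counts with 200 genes changed. Far more genes were called here, so that run cannot judge the scaling or the false calls of this contrast. TPM was used as the authors deposited it, for levels. Symbols matched 35690 identifiers. Positions come from GENCODE v29, promoters from RefSeq. Words of 31 bases shared between genes were counted in GENCODE v29 transcripts, which need not be the index the authors used.

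The inhibitors and the 4 lists (other serpins, other inhibitors, serine proteases, cathepsins with caspases) were chosen with earlier results of these data known. Named are all 10 inhibitors, up to 5 genes per list and direction with the smallest adjusted p, and direct partners of the inhibitors, of which 1 is not reported here. Counting intervals and floors cover counting error only. Alternatives were DESeq2 1.42.0, its size factors, library totals, a minimum of 1 CPM in 2 libraries, no filter, limma 3.58.1 (voom, and log2 TPM with 1 or 0.1 added), recovered reads with and without a length offset, a replicate block, and fits lacking 1 library. Where a group kept 1 library, it was assumed to vary like the other group. Figures were drawn with matplotlib 3.10.9.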

Additional observations from a re-analysis of the deposited data

How the results depend on the processing

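Over 15 alternatives, 6 of the 10 counts of called genes (all genes and the 4 lists, in each direction) stayed within 1.5 times of the reported count. The other 4 did not under these settings. With recovered reads, the other serpins called lower numbered 2 and the cathepsins and caspases called lower numbered 5. With 1 library left out, the other serpins called lower ranged from 0 (without Control replicate 1) to 1, the other inhibitors called lower from 3 (without Control replicate 2) to 5, and the cathepsins and caspases called higher from 3 (without CEBPB replicate 1) to 5. For CEBPB and the tested named genes and neighbours outside the 10 inhibitors, 37 in all, 511 values kept direction and call, 26 lost the call, 11 gained it and 1 changed sign. That was CST7, which ranged from -2.17 to 0.13 with 1 library left out (0.13 without CEBPB replicate 1). Alternatives in which a gene was not fitted or had no adjusted p, such as SPINK2 with recovered reads, are not in these numbers. SERPINB6 and CSTB changed sign in 4 alternatives each, and the cause was not tested.

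The labels give both groups numbers 1 and 2 but do not say that a number marks a shared culture, and deviations of same-numbered libraries correlated at -0.0131. With the replicate block, 3174 genes were called higher and 3308 lower. A low read number limits SERPINB10, SERPINA1 and SPINK2.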
